A study of Mus musculus with 24 samples.

Results

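The STAT transcription factors were followed through the reprogramming of neural precursor cells (NPCs) into induced pluripotent stem cells, with and without interferon γ (IFNγ). The genes were taken by name from the deposited normalized counts, and they were Stat2, Stat3, Stat4, Stat5a, Stat5b and Stat6, 6 of the 37315 genes in the data. Each of the 6 had a mean above 10 normalized counts over the 24 libraries.

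STAT proteins are latent transcription factors that are phosphorylated by Janus kinases (JAKs) at cytokine receptors, pair up and move to the nucleus. STAT2 works with IRF9 in the complex formed after type I interferon, STAT3 carries the signal of leukemia inhibitory factor (LIF) that keeps mouse embryonic stem cells (ESCs) undifferentiated, and STAT4 is best known for the response to interleukin 12. STAT5A and STAT5B are close relatives that serve growth hormone, prolactin and many cytokines, and STAT6 serves interleukin 4 and interleukin 13. SOCS proteins and CIS, the product of Cish, are induced by these pathways and feed back on them.

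RNA came from 24 libraries of the PaX system, with 12 populations in 2 replicates. PaX is a female hybrid M. musculus/M. castaneus ESC line, 129S1/SvImJ by CAST/EiJ, with an X-GFP reporter inserted at Hprt of the X chromosome from M. musculus, a truncated Tsix allele, a doxycycline-inducible MKOS reprogramming cassette with its rtTA activator at Sp3 and the P-RFP reporter driven by Nanog regulatory sequence. ESCs grown in serum and LIF and NPCs grown with EGF, bFGF and ROCK inhibitor were the end points. All reprogramming cells were NPCs grown on irradiated male feeder fibroblasts in medium with LIF, ascorbic acid and doxycycline, and IFNγ-treated cells also received 10 ng/ml IFNγ from day 0 to 5. Day 2 cells were sorted as negative for CFSE, the dye given to the feeders. Day 5 cells were sorted as SSEA1+, and day 7 cells as SSEA1+ and X-GFP–negative, X-GFP–medium or X-GFP–high, the reporter marking reactivation of that X chromosome. The IFNγ-treated cells of day 7 had therefore been without the added cytokine since day 5. The populations came from 1 cell line and were compared as sorted, so fewer cells of a type and less RNA per cell cannot be told apart.

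On mm10, Stat2 lies on chromosome 10 at chr10:128270559-128292849 on the plus strand, and Stat6 lies on the same chromosome and strand at chr10:127642986-127660957, with 609601 bases and 40 annotated genes between them. Stat4 lies at chr1:51987148-52107189 on the plus strand. The other members sit side by side on chromosome 11. Stat5b, on the minus strand, spans chr11:100780731-100850724, Stat5a, on the plus strand, spans chr11:100859351-100885169, and Stat3, on the minus strand, spans chr11:100885098-100939540. A gap of 8626 bases separates Stat5b from Stat5a, and the ends of Stat5a and Stat3 overlap by 72 bases on opposite strands. Of the stretches of 50 bases in the Stat5a transcripts, 608 of 7407 (8.21%) also occur in Stat5b transcripts, and these make up 10.98% of those of Stat5b. Reads falling wholly in such stretches cannot be assigned to 1 gene of the pair. No other pair of members shared a stretch of that length.

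The promoters of the 3 members that rose with IFNγ at day 2 are shown because interferon-responsive genes often carry a short element in this region. The windows are those of RefSeq on GRCm38.p6, 300 bases long, from 250 bases before the start site to 50 bases after it, printed along the strand of the gene. Capitals mark matches to the core of the interferon-stimulated response element, which is TTTC, any 2 bases and TTTC, and to a STAT-type palindrome, which is TTC, any 4 bases and GAA. The Stat2 window is chr10:128270248-128270547 on the plus strand, the Stat3 window chr11:100939491-100939790 on the minus strand and the first Stat5b window chr11:100850532-100850831 on the minus strand.
Stat2: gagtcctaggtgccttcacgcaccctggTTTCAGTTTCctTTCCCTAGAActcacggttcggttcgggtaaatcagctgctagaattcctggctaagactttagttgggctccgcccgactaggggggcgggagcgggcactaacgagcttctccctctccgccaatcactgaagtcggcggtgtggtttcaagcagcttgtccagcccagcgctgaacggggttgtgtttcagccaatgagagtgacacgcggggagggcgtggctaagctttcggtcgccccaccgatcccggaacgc
Stat3: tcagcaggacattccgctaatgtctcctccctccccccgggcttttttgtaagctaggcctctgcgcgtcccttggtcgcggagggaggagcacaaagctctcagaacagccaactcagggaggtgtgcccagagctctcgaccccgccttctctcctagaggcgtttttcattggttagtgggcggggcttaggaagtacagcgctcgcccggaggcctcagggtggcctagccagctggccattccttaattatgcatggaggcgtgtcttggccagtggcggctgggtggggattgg
Stat5b: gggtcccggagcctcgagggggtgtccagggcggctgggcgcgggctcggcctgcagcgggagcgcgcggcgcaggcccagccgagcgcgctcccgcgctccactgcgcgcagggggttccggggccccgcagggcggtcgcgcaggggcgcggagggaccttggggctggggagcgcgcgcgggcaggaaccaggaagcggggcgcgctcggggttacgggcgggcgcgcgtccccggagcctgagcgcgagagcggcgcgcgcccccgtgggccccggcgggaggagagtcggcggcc
The Stat2 window held both motifs next to each other, TTTCAGTTTC with its first base at position -222 and TTCCCTAGAA at position -210 relative to the start site. Both motifs were searched on both strands. All 6 genes had a RefSeq window, and of their 9 windows the only other match was GAAAGTGAAA at position -97 of the second Stat4 window, chr1:52007990-52008289, the response element core on the other strand. The interferon γ-activated site, TTC, any 3 bases and GAA, was found in none of the 9 windows. Over 32851 promoter windows of the same length, 3.44% held the first motif, 6.95% the second and 8.30% the third. A match describes these letters and does not show binding. The first Stat5b window was rich in G and C, with 82.7% of its bases, compared with 59.3% for Stat2 and 60.7% for Stat3.

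The libraries held 24746109 to 37056508 reads counted on genes. The values are the authors' normalized counts, reads scaled by 1 DESeq2 size factor for each library, and the replicates of each population were further apart than counting error allows. Fibroblast markers (8 genes) were detected in all 12 populations, with sums of 30196 and 43108 normalized counts in NPCs themselves. In ESCs the sums were 311 and 352, and 4 of the 8 genes were above 3 reads in at least 1 library. The sum of 4 Y-linked genes, which only the male feeders could carry, was 125 to 253 in the day 2 libraries and at most 12.5 elsewhere. NPCs and ESCs carried their labels' markers, with neural precursor sums of 44167 and 46820 in NPCs and pluripotency sums of 171413 and 176589 in ESCs. Gfap was at or under 3 reads in both NPC libraries, and Ddx3y, Uty, Kdm5d and Eif2s3y were so in both ESC libraries.

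Levels between members were compared per kilobase of merged exons. On this scale Stat3 was the most abundant of the 6 genes in 23 of 24 libraries, the exception being 1 ESC library in which Stat6 was higher. In NPCs Stat3 stood at 175 ± 22.7 normalized counts per kilobase (SD, n = 2), Stat5b at 126 ± 16.5 and Stat2 at 94.1 ± 1.95, while Stat4, Stat5a and Stat6 stood at 7.95 ± 2.26, 3.88 ± 0.0878 and 3.75 ± 0.620. In ESCs the order was Stat3 at 263 ± 4.93, Stat6 at 250 ± 28.6, Stat2 at 135 ± 9.28, Stat4 at 95.2 ± 2.87, Stat5b at 73.0 ± 0.813 and Stat5a at 14.4 ± 0.615. Stat6 and Stat3 overlapped there. Of the 6 genes, NPCs thus held chiefly Stat3, Stat5b and Stat2, and ESCs chiefly Stat3, Stat6 and Stat2. Per kilobase of the longest transcript instead, Stat3 was the highest of the 6 in 24 of 24 libraries.

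As a share of the summed STAT level per kilobase, Stat6 made up 0.913% ± 0.136 in NPCs, 4.13% ± 1.07 in day 2 control cells, 21.5% ± 1.14 in day 5 control cells, 25.4% ± 0.642 in X-GFP–high control cells and 30.1% ± 1.99 in ESCs (SD, n = 2). Stat5b went the other way, from 30.8% ± 4.51 in NPCs to 8.79% ± 0.327 in ESCs. The summed level of the 6 genes was highest in day 2 IFNγ-treated cells, 1463 ± 0.5995 normalized counts per kilobase compared with 812 ± 24.03 in their control, and lowest in NPCs at 411 ± 6.60. In day 2 IFNγ-treated cells Stat2 took 35.9% ± 0.884 of the sum, compared with 18.8% ± 0.479 in the control.

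**Figure D1:**
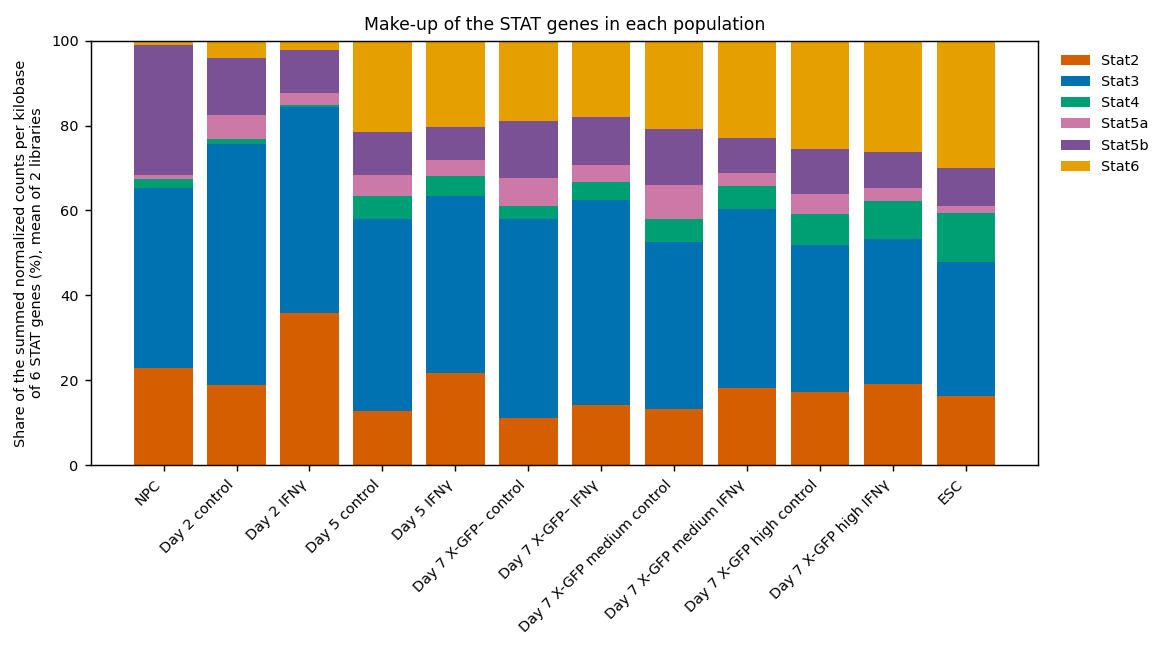
Each bar shows the mean share (%) of every STAT gene in the summed normalized counts per kilobase of the 6 genes, over 2 libraries of a population. Stat6 is barely visible in NPCs (0.913%) and takes 30.1% in ESCs, and Stat2 is widest in day 2 IFNγ-treated cells (35.9%).

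Over the 12 populations, the ratio of the highest to the lowest mean was 66.7 for Stat6, 18.1 for Stat5a, 14.1 for Stat4, 5.74 for Stat2, 4.07 for Stat3 and 2.05 for Stat5b. Stat2, Stat3 and Stat5b were highest in day 2 IFNγ-treated cells. Stat4 and Stat6 were highest in ESCs, and Stat5a in X-GFP–medium control cells. Of the 11 steps between neighbouring populations in the order of means, libraries overlapped in 7 for Stat5a, Stat5b and Stat6, in 5 for Stat3 and in 4 for Stat2 and Stat4.

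**Figure D2:**
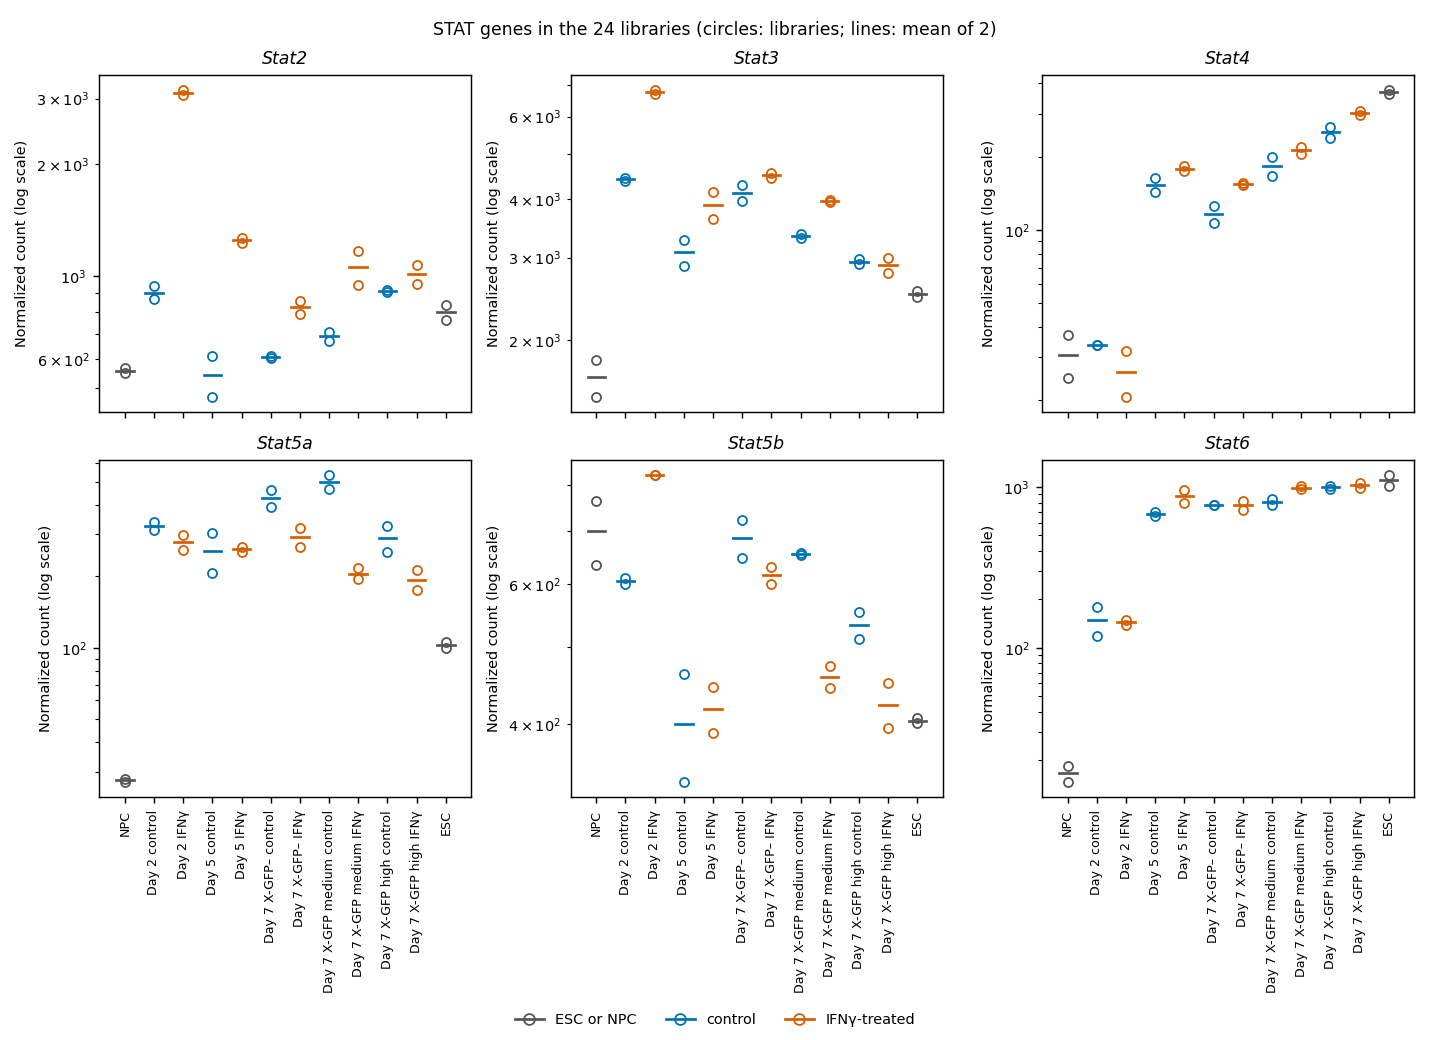
Normalized counts (log axis, a scale of its own in each panel) of the 6 STAT genes in 24 libraries, with circles for libraries and lines for the mean of 2. Stat2 stands out in day 2 IFNγ-treated cells, Stat4 and Stat6 rise toward ESCs, and Stat5a peaks in X-GFP–medium control cells.

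Stages of reprogramming without IFNγ were compared first, to see how the family changed on the way from NPC to pluripotent cells. Each comparison set 2 libraries against 2 with limma over all genes, with a two-sided test and a threshold of 0.1 on the Benjamini-Hochberg adjusted p. Log2 fold changes are on log2(normalized count + 1), so those of low genes are understated. Neighbouring stages share libraries. The p-values measure only the spread between these samples.

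ESCs and NPCs differed in all 6 STAT genes, 5 higher and 1 lower in ESCs, in a comparison in which 42.2% of the tested genes were called higher and 43.4% lower. Stat6 was listed at 1012 and 1191 normalized counts in ESCs and at 14.6 and 18.4 in NPCs. Its groups were far apart, by a log2 fold change of 5.98 ± 0.20 (SE, adjusted p 4.26e-06). Stat4 counted 376 and 361 in ESCs and 36.9 and 24.6 in NPCs, a log2 fold change of 3.57 ± 0.25 (adjusted p 4.00e-05). Stat5a counted 106 and 99.9 in ESCs and 27.2 and 28.1 in NPCs, a log2 fold change of 1.86 ± 0.22 (adjusted p 0.000417). Stat3 and Stat2 differed less, by 0.60 ± 0.10 and 0.52 ± 0.09. Stat5b was the member lower in ESCs, by -0.78 ± 0.12 (adjusted p 0.00129).

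The first 2 days raised 4 of the 6 members above their NPC level and lowered none past the threshold, where 31.6% of the tested genes were called higher and 37.6% lower. Stat5a rose most, from 27.2 and 28.1 to 338 and 312 normalized counts, a log2 fold change of 3.51 ± 0.20 (adjusted p 7.79e-05). Stat6 rose from 14.6 and 18.4 to 178 and 118, by 3.07 ± 0.31 (adjusted p 0.000439). Stat3, the LIF effector, rose from 1511 and 1817 to 4436 and 4372, by 1.41 ± 0.10 (adjusted p 0.000155), and Stat2 by 0.69 ± 0.10 (adjusted p 0.00152). With 2 libraries in each group, those of these 4 genes did not overlap, and neither did those of Stat5b, which was not called. The feeders' Y-linked genes appeared in the same day 2 libraries, at sums of 218 and 253 compared with 0 and 1.94 in NPCs, and the part of feeder RNA in these 4 differences was not tested. Stat4 and Stat5b had log2 fold changes of 0.15 ± 0.31 and -0.20 ± 0.12, the latter becoming -0.34 (adjusted p 0.0403) without NPC replicate 2.

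From day 2 to day 5 the members parted. Stat4 rose from 33.6 and 33.7 to 164 and 143 normalized counts, by 2.15 ± 0.22 on the log2 scale (adjusted p 0.000157). Stat6 rose from 178 and 118 to 661 and 697, by 2.22 ± 0.20 (adjusted p 8.37e-05). Stat2, Stat3 and Stat5b fell by 0.75, 0.52 and 0.61 on the log2 scale, with adjusted p of 0.00238, 0.000879 and 0.0122. Stat5a had a log2 fold change of -0.37 ± 0.20 (adjusted p 0.141), which was called in the fit of all libraries (adjusted p 0.0675), with values rescaled to the same total (adjusted p 0.0607) and without day 5 control replicate 1 (-0.65, adjusted p 0.0194). Thus 2 members were called higher and 3 lower, where 34.9% of the tested genes were called higher and 35.6% lower. Over the same interval the fibroblast sum went from 41396 and 61408 to 1712 and 2574, and its part in these changes was not tested. The sort changed too, from CFSE-negative to SSEA1+ cells, and day and sort cannot be told apart.

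At day 7 without IFNγ, several members differed between the X-GFP gates. Against day 5, X-GFP–negative cells held more Stat3 (0.42 ± 0.08, adjusted p 0.00332), Stat5a (0.76 ± 0.19, adjusted p 0.0104) and Stat5b (0.79 ± 0.16, adjusted p 0.00335) and less Stat4 (-0.40 ± 0.18, adjusted p 0.0829), where 34.2% of the tested genes were called higher and 29.5% lower. The Stat4 call was lost without day 5 control replicate 1 or either X-GFP–negative control replicate (adjusted p 0.209, 0.390 and 0.127), and DESeq2 did not make it (adjusted p 0.196). Stat2 was called higher at this step without day 5 control replicate 1 (0.36, adjusted p 0.0180). From X-GFP–negative to X-GFP–medium cells, Stat4 rose by 0.65 ± 0.15 (adjusted p 0.00558) and Stat2 by 0.18 ± 0.08 (adjusted p 0.0872), while Stat3 fell by 0.30 (adjusted p 0.00171), where 21.9% of the tested genes were called higher and 25.2% lower. The Stat2 call of this step was lost without any 1 of the 4 libraries, with adjusted p of 0.102 to 0.430. Stat5a was called higher with rescaled values (adjusted p 0.0436), by edgeR (adjusted p 0.0748) and without X-GFP–negative control replicate 1 (0.35, adjusted p 0.00705) or X-GFP–medium control replicate 2 (adjusted p 0.0921).

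From X-GFP–medium to X-GFP–high control cells all 6 members passed the threshold, 3 higher and 3 lower, where 31.4% of the tested genes were called higher and 32.7% lower. Stat2 rose by 0.41 ± 0.07, Stat4 by 0.47 ± 0.13 and Stat6 by 0.31 ± 0.07, and Stat3, Stat5a and Stat5b fell by 0.18, 0.80 and 0.30 on the log2 scale. The adjusted p lay between 3.58e-05 for Stat5a and 0.00776 for Stat3. The fit of all libraries did not call Stat6 there (adjusted p 0.112). Over the same step the fibroblast sum went from 5042 and 5612 to 2125 and 2614, with 1 of 6 tested genes higher and 3 lower, and the neural precursor sum from 3931 and 4196 to 2030.2 and 2150.04, with 0 of 5 higher and 4 lower. The sum of 8 blood cell markers went from 1885 and 2197 to 1169 and 1312, and that of 8 pluripotency genes from 77693 and 79022 to 123782 and 124296. The part of other cells in these 6 changes was not tested. X-GFP–high cells still differed from ESCs in 5 members, 4 higher and 1 lower, where 37.9% of the tested genes were called higher and 37.8% lower. Stat5a counted 326 and 252 in them compared with 106 and 99.9 in ESCs, a log2 fold change of 1.47 ± 0.16 (adjusted p 1.53e-06). Stat4 was lower than in ESCs, by -0.55 ± 0.11 (adjusted p 0.000719), and Stat6 differed by -0.14 ± 0.08 (adjusted p 0.153) with overlapping libraries, or by -0.26 (adjusted p 0.0146) without ESC replicate 1. Stat2, Stat3 and Stat5b were higher than in ESCs by 0.19 ± 0.08, 0.23 ± 0.06 and 0.40 ± 0.10. The Stat2 call was lost without ESC replicate 1 (adjusted p 0.279), X-GFP–high control replicate 1 (adjusted p 0.102) or replicate 2 (adjusted p 0.127), and with DESeq2 (adjusted p 0.116).

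With IFNγ, the cytokine was removed between day 5 and the X-GFP–negative cells of day 7. Over this step 2 members were higher and 1 lower, where 23.1% of the tested genes were called higher and 24.2% lower. The 2 higher members, Stat5b and Stat3, also rose over this step without IFNγ, by 0.79 ± 0.16 and 0.42 ± 0.08. The difference between the arms at this step was not tested. The sort gate changed too, and removal, day and gate cannot be told apart. Stat2 fell by 0.60 on the log2 scale (adjusted p 0.00324), from 1231 and 1263 to 858 and 791 normalized counts. Stat5b rose by 0.56 ± 0.12 (adjusted p 0.0103) and Stat3 by 0.22 ± 0.08 (adjusted p 0.0792), the latter call being lost with DESeq2 (adjusted p 0.101) and without day 5 IFNγ replicate 1 or X-GFP–negative IFNγ replicate 1 or 2 (adjusted p 0.288, 0.312 and 0.191). Stat6 was called lower without day 5 IFNγ replicate 1 (-0.32, adjusted p 0.0727).

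IFNγ-treated and control cells were then set against each other within a day and gate, which asks how the cytokine moved the family while it was present (days 2 and 5) and after it had been removed (day 7). At day 2, 3 of the 6 members rose and none fell past the threshold, where 5.03% of the tested genes were called higher and 3.45% lower. Their median log2 fold change was 0.21, compared with 0.01 for all tested genes. In the same libraries the fibroblast sum was 25195 to 30729 with IFNγ and 41396 to 61408 without, with 4 of 8 genes called lower and 0 higher, and the Y-linked sum was 125 to 223 compared with 218 to 253, with 0 of 4 genes called. The part of feeder RNA in the 3 differences was not tested.

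Of the 6 genes, Stat2 had the largest log2 fold change with IFNγ at days 2 and 5. In the 3 gates of day 7 that of Stat5a was larger in size, and negative (-0.55, -1.28 and -0.57). At day 2 Stat2 counted 3059 and 3165 normalized counts with IFNγ and 939 and 868 in the control. Both treated libraries were far above the controls, a 3.44-fold difference (log2 fold change 1.78 ± 0.07, adjusted p 2.53e-05). At day 5 it counted 1231 and 1263 with IFNγ and 610.2 and 473 without, a log2 fold change of 1.21 ± 0.14 (adjusted p 0.0115). Stat2 was the 1 member called there by limma on all 4 libraries, while the alternatives called up to 3, and 1.65% of the tested genes were called higher and 0.535% lower. At day 7 the difference was smaller. X-GFP–negative cells counted 858 and 791 compared with 603 and 609, a log2 fold change of 0.44 ± 0.09 (adjusted p 0.00241). X-GFP–medium cells counted 1165 and 948 compared with 670.1 and 708, by 0.61 ± 0.10 (adjusted p 0.000671). X-GFP–high cells counted 1074 and 953 compared with 909.5 and 918, with no overlap but a log2 fold change of 0.15 ± 0.09 (adjusted p 0.240). Without X-GFP–high IFNγ replicate 2 this became 0.23 with an adjusted p of 0.0586.

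Stat3 moved less than Stat2. By limma on all 4 libraries it passed the threshold at day 2 and in X-GFP–medium cells of day 7. At day 2 it counted 6840.1 and 6714 with IFNγ and 4436 and 4372 without, a 1.54-fold difference with no overlap (log2 fold change 0.62 ± 0.05, adjusted p 0.00101). At day 5 it counted 3621 and 4138 compared with 2885 and 3275, and its log2 fold change of 0.33 ± 0.10 did not pass the threshold (adjusted p 0.172). DESeq2 and the fit with all libraries did call it there (adjusted p 0.0850 and 0.0170), as did limma without day 5 IFNγ replicate 1 (adjusted p 0.0594). At day 7 Stat3 was higher in X-GFP–medium cells, at 3989 and 3942 compared with 3362 and 3302 (0.25 ± 0.06, adjusted p 0.00402). The values in X-GFP–negative and X-GFP–high cells were 0.13 ± 0.06 (adjusted p 0.126) and -0.03 ± 0.07 (adjusted p 0.820). Values rescaled to the same total called Stat3 higher in X-GFP–negative cells as well (0.28, adjusted p 0.00406), in the comparison in which that scaling shifted the median of all genes by 0.16.

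Stat5a and Stat5b had values of opposite sign at day 2, and the difference between the genes was not tested. Stat5b was higher with IFNγ, at 824 and 822 normalized counts compared with 599.8 and 610.4 (0.44 ± 0.08, adjusted p 0.0268), and its libraries did not overlap. That call was lost without day 2 control replicate 1 or 2 (adjusted p 0.118 and 0.101) or without IFNγ replicate 1 or 2 (adjusted p 0.1003 and 0.130). Stat5a counted 297 and 258 with IFNγ and 338 and 312 without, a log2 fold change of -0.23 ± 0.13 (adjusted p 0.368). At day 5 neither passed the threshold (0.05 ± 0.20 and 0.07 ± 0.18).

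At day 7, after removal of IFNγ, Stat5a was lower in the treated cells of the 3 gates and Stat5b in those of 2. Stat5a counted 319 and 264 compared with 462 and 391 in X-GFP–negative cells (-0.55 ± 0.13, adjusted p 0.00718). In X-GFP–medium cells it counted 216 and 194 compared with 534 and 466, which is 2.42-fold less than the control (-1.28 ± 0.12, adjusted p 1.61e-05). In X-GFP–high cells it counted 211 and 175 compared with 326 and 252 (-0.57 ± 0.16, adjusted p 0.0201). No treated library reached its control in any gate. Stat5b was lower in X-GFP–medium cells, at 474 and 444 compared with 653 and 658 (-0.51 ± 0.09, adjusted p 0.000846). It was also lower in X-GFP–high cells, at 451 and 395 compared with 511 and 554 (-0.33 ± 0.11, adjusted p 0.0421), and in X-GFP–negative cells it differed by -0.15 ± 0.09 (adjusted p 0.197), or by 0.0036 with values rescaled to the same total. The ratio of Stat5a to Stat5b per kilobase was 0.592 ± 0.0598 in X-GFP–medium control cells and 0.347 ± 0.0102 in the treated cells (SD, n = 2).

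In X-GFP–high cells the Stat5a call was lost without control replicate 1 (adjusted p 0.264), and the Stat5b call without control replicate 1 or 2 (adjusted p 0.127 and 0.250) or IFNγ replicate 2 (adjusted p 0.132). Without the filter on low values both missed the threshold, at an adjusted p of 0.121. The fibroblast sum also differed between the arms at day 7, at 1025 to 1035 with IFNγ compared with 4443 to 5065 in X-GFP–negative cells, 690 to 743 compared with 5042 to 5612 in X-GFP–medium cells, and 612 to 686 compared with 2125 to 2614 in X-GFP–high cells. Of its tested genes, 1 of 7, 4 of 7 and 1 of 6 were called lower, and 1, 2 and 1 were called higher. Lum and Postn were at or under 3 reads in both treated X-GFP–high libraries. Of 8 blood cell markers, Cd68, a lysosomal gene of macrophages, made up most of the sum, at 1202 and 981 normalized counts compared with 2070 and 1809 in X-GFP–medium cells, while Ptprc, which marks all white blood cells, was at most 13.9 at day 7. The sum of 8 pluripotency genes was 108082 to 110443 with IFNγ and 77693 to 79022 without in X-GFP–medium cells, with 7 genes higher and 1 lower. The neural precursor sum there was 1743 to 2148 compared with 3931 to 4196, with 0 of 5 tested genes higher and 3 lower. The other gates also had a higher pluripotency sum and a lower neural precursor sum with IFNγ. The part of other cells, or of cells at another stage within a gate, in the Stat5 differences was not tested.

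By limma on all libraries of a comparison, Stat4 passed the threshold only in X-GFP–negative cells and Stat6 only in X-GFP–medium cells. Stat4 was higher with IFNγ in X-GFP–negative cells, at 156 and 153 normalized counts compared with 106 and 126 (0.42 ± 0.16, adjusted p 0.0474). DESeq2 did not call it (adjusted p 0.200), nor did limma without control replicate 1 (0.30, adjusted p 0.252) or IFNγ replicate 1 (adjusted p 0.112). Its other log2 fold changes were -0.39 ± 0.31 at day 2, where it had only 20.6 to 33.7 normalized counts, 0.22 ± 0.17 at day 5, 0.22 ± 0.14 in the X-GFP–medium gate and 0.27 ± 0.13 in the X-GFP–high gate, with adjusted p of 0.143 to 0.544. Stat6 was higher in X-GFP–medium cells, at 968 and 1012 compared with 844 and 771 (0.29 ± 0.08, adjusted p 0.0113). That call was lost in the fit of all libraries (adjusted p 0.114) and without X-GFP–medium control replicate 2 (0.23, adjusted p 0.138). Its values elsewhere were -0.02 ± 0.22 at day 2, 0.37 ± 0.12 at day 5, -0.01 ± 0.09 in X-GFP–negative cells (0.15 with values rescaled to the same total) and 0.04 ± 0.09 in X-GFP–high cells. The day 5 value, with adjusted p of 0.196, was called without day 5 IFNγ replicate 1 (0.49, adjusted p 0.0719).

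In the day 7 gates together with their background, X-GFP–negative cells had 2 members higher and 1 lower, where 31.1% of the tested genes were called higher and 30.8% lower. In X-GFP–medium cells 3 were higher and 2 lower, where 33.3% and 29.6% were, and in X-GFP–high cells 0 were higher and 2 lower, where 18.1% and 20.4% were. Among the alternatives run, the number higher in X-GFP–high cells rose to 1 without IFNγ replicate 2, through Stat2.

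**Figure D3:**
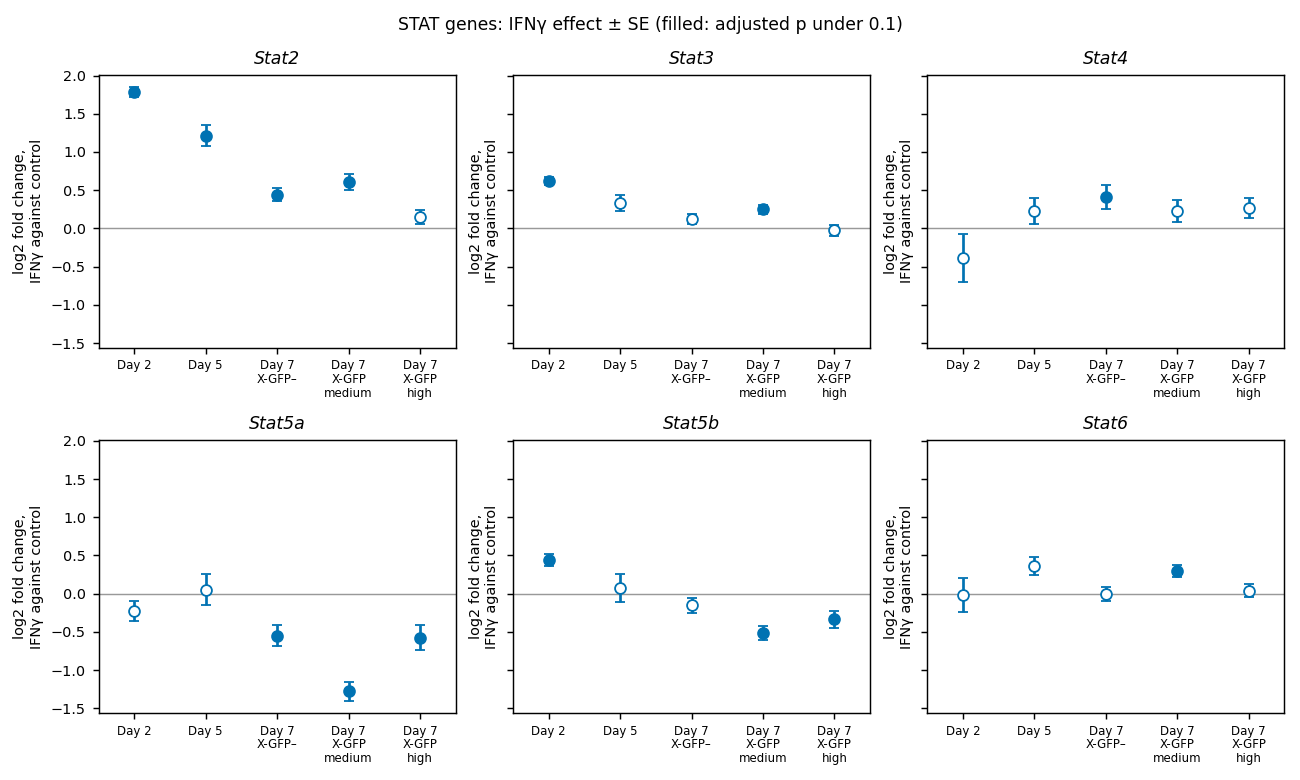
Log2 fold change of IFNγ-treated against control cells (2 libraries against 2) for each STAT gene at day 2, day 5 and in the 3 gates of day 7, with SE bars and filled symbols for an adjusted p under 0.1. Stat2 is at 1.78 at day 2, 1.21 at day 5 and 0.44, 0.61 and 0.15 in the X-GFP–negative, medium and high gates. Stat5a is lowest in X-GFP–medium cells at -1.28.

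Whether the effect differed between days and gates was tested by an interaction term over 8 libraries. Between day 5 and day 2, none of the 6 members passed the threshold in limma, with 2 at an unadjusted p under 0.05, in a test that called 0.676% of genes. The Stat2 effect changed by -0.57 ± 0.16 on the log2 scale (adjusted p 0.280), and this was called by DESeq2 (adjusted p 0.0965), by the fit of all libraries (adjusted p 0.0906) and without day 5 control replicate 2 (-0.75, adjusted p 0.0481). The Stat5a effect was more negative in X-GFP–medium than in X-GFP–negative cells, by -0.73 ± 0.19 (adjusted p 0.0370), where 7.31% of the tested genes were called higher and 8.36% lower. It missed the threshold without X-GFP–negative control replicate 2 (adjusted p 0.116) or X-GFP–medium control replicate 1 (adjusted p 0.160). From X-GFP–medium to X-GFP–high cells, 1 member was called higher (Stat5a) and 2 lower (Stat2 and Stat3), where 4.71% of the tested genes were called higher and 8.06% lower. These 3 calls were lost with no filter (adjusted p 0.171 for Stat5a, 0.179 for Stat2 and 0.127 for Stat3) and in the fit of all libraries (adjusted p 0.126, 0.102 and 0.194). DESeq2 did not call Stat2 (adjusted p 0.103) or Stat3 (adjusted p 0.181), and edgeR did not call Stat3 (adjusted p 0.121). Leaving out 1 of the 8 libraries lost Stat2 and Stat3 without X-GFP–medium control replicate 1 or 2, X-GFP–medium IFNγ replicate 1, X-GFP–high control replicate 1 or 2 or X-GFP–high IFNγ replicate 2, with adjusted p of 0.152 to 0.244. It lost Stat5a without X-GFP–medium control replicate 1 or 2, X-GFP–medium IFNγ replicate 2, X-GFP–high control replicate 2 or X-GFP–high IFNγ replicate 1 (adjusted p 0.111 to 0.268). Tests of each day 7 gate against day 2 were added after the data had been seen. The Stat2 effect was smaller than at day 2 in X-GFP–negative cells by -1.34 ± 0.10 (adjusted p 4.50e-05), in X-GFP–medium cells by -1.17 ± 0.14 (adjusted p 0.000264) and in X-GFP–high cells by -1.64 ± 0.11 (adjusted p 2.60e-05). The share of all tested genes called lower in those tests was 23.1%, 23.8% and 14.8%, and the share called higher was 19.8%, 19.6% and 8.76%. Stat3 and Stat5b were called lower in the same 3 tests, and Stat5a in X-GFP–medium cells (-1.05 ± 0.18, adjusted p 0.00191). The 3 tests share the day 2 libraries.

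The genes around the STATs were taken from a list of 78 JAKs, receptor chains, feedback regulators, partners and usual targets. At day 2, 17 of the 68 tested were higher and 7 lower with IFNγ, compared with 5.03% and 3.45% of all tested genes, and the median log2 fold change was 0.14 compared with 0.01. Without day 2 control replicate 1, control replicate 2 or IFNγ replicate 1 the number higher was 11, 10 and 10. Il12rb1, a receptor chain for interleukin 12, rose from 39.7 and 37.7 to 343 and 310 normalized counts (3.04 ± 0.17, adjusted p 0.000176). Socs1, a feedback inhibitor of JAKs induced by IFNγ, rose from 89.6 and 79.4 to 583 and 586 (2.78 ± 0.13, adjusted p 8.01e-05). Socs3, which restrains LIF receptor signaling, rose from 2996 and 2524 to 4697 and 4094 (0.67 ± 0.10, adjusted p 0.0167). Jak2, a kinase of the IFNγ receptor, rose by 0.33 ± 0.06 (adjusted p 0.0243), a call lost in the fit of all libraries (adjusted p 0.175) and without control replicate 1 (adjusted p 0.105) or IFNγ replicate 2 (adjusted p 0.114).

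The partner of STAT2 and the usual targets of its complex moved in both directions at day 2. Irf9 counted 2896 and 3049 with IFNγ and 2509 and 2594 without (0.22 ± 0.06, adjusted p 0.0935). This call was lost without any 1 of the 4 libraries. It was also lost with no filter (adjusted p 0.172), values rescaled to the same total (0.137), the fit of all libraries (0.184) and DESeq2 (0.157). Of 8 usual targets of type I interferon, Ifit3 and Irf7 were higher, and Ifit1, Mx1, Oas2 and Rsad2 were lower. The antiviral gene Oas2, which makes the activator of RNase L, fell from 1255 and 1384 to 495 and 538 normalized counts (-1.35 ± 0.09, adjusted p 0.000401). Rsad2, the antiviral protein viperin, fell from 697 and 815 to 311 and 356 (-1.18 ± 0.12, adjusted p 0.00329), which the fit of all libraries did not call (adjusted p 0.117). Irf7, a regulator of type I interferon genes, rose from 145 and 151 to 340.3 and 463 (1.42 ± 0.17, adjusted p 0.00743). The 8 targets were at 0 to 11.4 normalized counts in NPCs, and the part of feeder RNA in their difference was not tested. Ifit1, Ifit3, Irf7 and Mx1 were named after their values had been seen.

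At day 5, 11 of 68 pathway genes were higher and 0 lower by limma, compared with 1.65% and 0.535% of all tested genes, and the median was 0.13 compared with -0.00 for all tested genes. Without day 5 control replicate 1, IFNγ replicate 1 or IFNγ replicate 2 the number higher was 5, 18 and 3, and without IFNγ replicate 1 the number lower was 4. At an adjusted p under 0.1, DESeq2 called 2 lower and the fit of all libraries 5. Here 6 of 8 interferon targets rose. Isg15, an interferon-induced ubiquitin-like modifier, rose from 19.4 and 31.1 to 96.6 and 119 (2.08 ± 0.31, adjusted p 0.0364), a call lost without IFNγ replicate 2 (adjusted p 0.174). Socs1 rose from 35.3 and 32.0 to 145 and 137 (2.03 ± 0.22, adjusted p 0.00929). Irf9 rose from 601 and 696 to 1038 and 1178 (0.77 ± 0.12, adjusted p 0.0445), a call lost without control replicate 1 (adjusted p 0.148) or IFNγ replicate 2 (adjusted p 0.174). Socs3 rose by 0.53 ± 0.07 (adjusted p 0.0208). Of the 10 STAT3 targets 0 were called in either direction.

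At day 7, 24 of the 66 pathway genes tested in X-GFP–negative cells were higher and 30 lower, compared with 31.1% and 30.8% of all tested genes. The medium gate had 22 of 64 higher and 27 lower, compared with 33.3% and 29.6%, and the high gate 7 of 62 higher and 16 lower, compared with 18.1% and 20.4%. In X-GFP–high cells the number higher was 11 without IFNγ replicate 2, and the number lower was 9 without control replicate 1. The medians were -0.06, -0.03 and -0.07, compared with 0.02, 0.04 and 0.03 for all tested genes. Lifr, the LIF receptor that signals through STAT3, was listed by the study from these same libraries and is no independent evidence. It counted 4749.8 and 5105 with IFNγ and 1684 and 2012 without in X-GFP–negative cells (1.42 ± 0.09, adjusted p 4.10e-06). In X-GFP–medium cells it counted 6279.6 and 6381 compared with 2576 and 2702 (1.26 ± 0.06, adjusted p 4.24e-07). Klf5, a STAT3 target of ESCs, was higher in X-GFP–medium cells (0.96 ± 0.09, adjusted p 1.34e-05) and X-GFP–high cells (0.81 ± 0.08, adjusted p 1.77e-05). Gbx2, another, rose from 43.3 and 48.0 to 111 and 128 in X-GFP–high cells (1.37 ± 0.21, adjusted p 0.000567). The 10 STAT3 targets of the list went both ways at day 7, with 4 called up against 4 down in the negative gate. The medium gate had 7 up against 2 down, and the high gate 3 up against 3 down.

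Cish, a usual STAT5 target, was lower with IFNγ in the 3 gates. It counted 84.8 and 96.0 compared with 275 and 212 in X-GFP–negative cells, 44.8 and 44.96 compared with 133 and 155 in X-GFP–medium cells, and 23.99 and 31.2 compared with 88.7 and 89.7 in X-GFP–high cells. The log2 fold changes were -1.41 ± 0.17, -1.66 ± 0.19 and -1.67 ± 0.25, with adjusted p of 0.000138, 5.95e-05 and 0.000436. Socs2, also known as a STAT5 target, was higher in the same gates by 0.57 ± 0.09, 0.65 ± 0.07 and 0.55 ± 0.08, and was singled out after its values had been seen. Of 4 tested STAT5 targets in the list, Bcl2l1, Bcl6 and Ccnd1 were lower in X-GFP–negative cells, Bcl2l1 and Ccnd1 in X-GFP–medium cells and Bcl2l1 in X-GFP–high cells, while Osm was higher in the first 2 gates. These 4 genes were named after their values had been seen. In the negative, medium and high gates, 30.8%, 29.6% and 20.4% of all tested genes were called lower, and 31.1%, 33.3% and 18.1% higher. Jak2 fell by 0.65, 0.66 and 0.65 on the log2 scale in the 3 gates, with adjusted p of 0.00273, 0.000114 and 0.00190.

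Il12rb1, which had risen at day 2, counted 41.4 and 72.1 compared with 333 and 292 in X-GFP–medium cells (-2.49 ± 0.24, adjusted p 1.72e-05), and it was lower in X-GFP–negative cells (-1.51 ± 0.15) and X-GFP–high cells (-2.03 ± 0.21) too. Lepr, the leptin receptor, fell from 307 and 199 to 54.8 and 59.4 in X-GFP–negative cells (-2.10 ± 0.21, adjusted p 5.30e-05). Junb, an AP-1 subunit and STAT3 target, fell from 1891 and 1791 to 938 and 900.3 in X-GFP–high cells (-1.001 ± 0.08, adjusted p 4.38e-06). Arg1, a STAT6 target of macrophages that NPCs expressed as well, fell from 105 and 119 to 16.8 and 17.8 in X-GFP–medium cells (-2.62 ± 0.24, adjusted p 1.25e-05). Il4ra, the receptor chain shared by interleukins 4 and 13, had adjusted p of 0.235 to 0.866 over the 5 comparisons in limma without a replicate term.

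Socs1 was still higher after IFNγ had been removed in X-GFP–negative cells, at 179 and 127 compared with 86.7 and 52.6 (1.15 ± 0.26, adjusted p 0.00496), and in X-GFP–medium cells, at 96.3 and 85.7 compared with 61.3 and 52.7 (0.67 ± 0.20, adjusted p 0.0179). The second call was lost with DESeq2 (adjusted p 0.125) and without X-GFP–medium control replicate 2 (adjusted p 0.146). In X-GFP–high cells it differed by 0.19 ± 0.25 (adjusted p 0.605), or by 0.56 (adjusted p 0.0687) without IFNγ replicate 2. Socs3 was higher in X-GFP–medium cells, by 0.31 ± 0.06 (adjusted p 0.00102). In X-GFP–negative cells its value was 0.10 ± 0.07 (adjusted p 0.216), or 0.18 (adjusted p 0.0810) without IFNγ replicate 2, and 0.26 (adjusted p 0.00786) with values rescaled to the same total. Irf9 differed by 0.10 ± 0.09, 0.01 ± 0.08 and -0.11 ± 0.10 in the 3 gates. The first value was called with rescaling (0.25, adjusted p 0.0319), and the middle value was below 0 with DESeq2 and edgeR (-0.02 and -0.01). That scaling shifted the median of all genes in X-GFP–negative cells by 0.16.

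**Figure D4:**
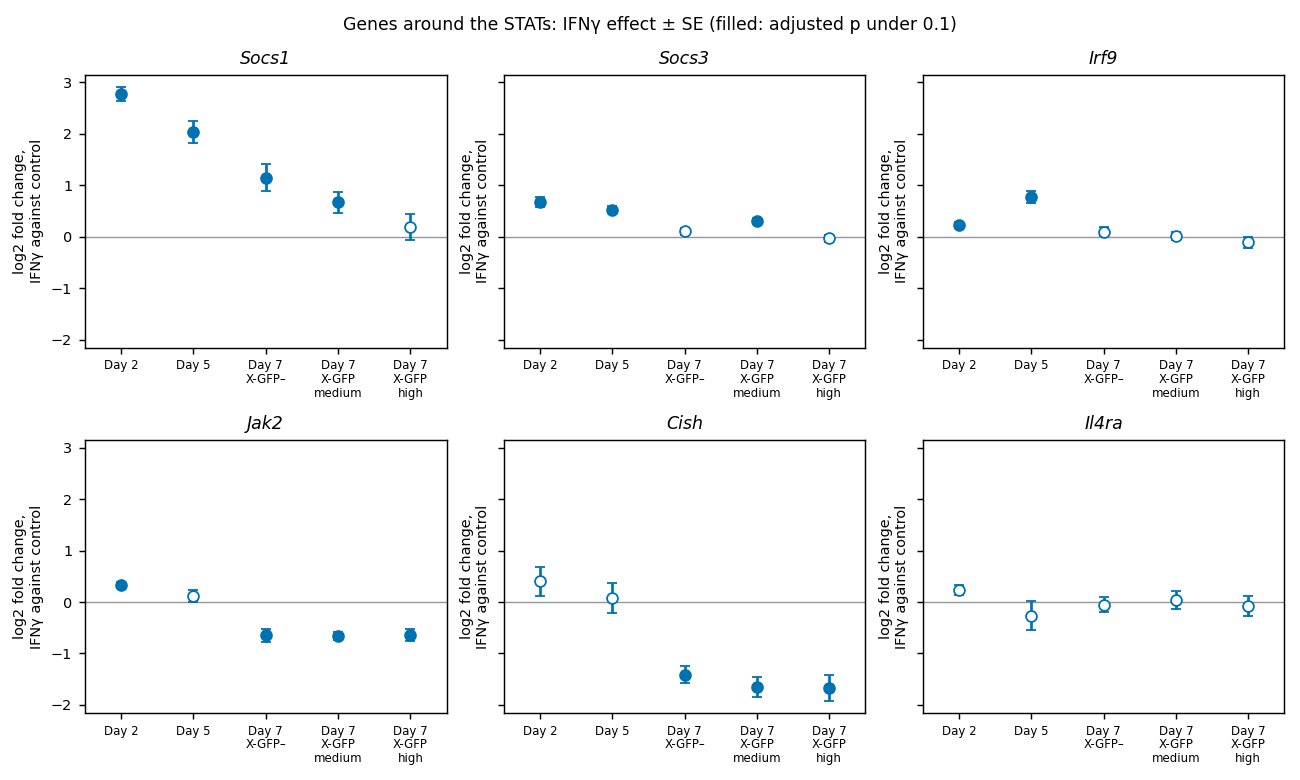
Log2 fold change of IFNγ-treated against control cells (2 libraries against 2) for 6 genes that act with or are induced by the STATs, with SE bars and filled symbols for an adjusted p under 0.1. Socs1 is at 2.78 at day 2, 2.03 at day 5 and 1.15, 0.67 and 0.19 in the X-GFP–negative, medium and high gates. Cish is below the control in the 3 gates of day 7 (-1.41 to -1.67).

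The genes whose population means followed each member most closely are given as a description over 12 populations, among 11472 protein-coding genes with a mean of at least 100. The 12 points share libraries, normalization and, in pairs, a stage. For Stat2 they were Socs1 (r = 0.932), Cd74, the invariant chain of MHC class II (r = 0.904), and Tgtp1, an interferon-inducible GTPase (r = 0.892). For Stat3 they were Parp12 (r = 0.930), Parp9 (r = 0.913) and Ddx60 (r = 0.912), all known as interferon-induced. Those of Stat4 were Trap1a (r = 0.993), Gm14139 (r = 0.993) and Zfp819 (r = 0.993). Those of Stat6 were Ildr1 (r = 0.994), Tdh, a threonine dehydrogenase of mouse ESCs (r = 0.994), and Castor1, an arginine sensor (r = 0.994). Stat5a went with Anxa8 (r = 0.982), Trim47 (r = 0.982) and Adamtsl4 (r = 0.981), and Stat5b with Dync2li1 (r = 0.941), Prnp, which encodes the prion protein (r = 0.939), and Twsg1 (r = 0.935). Between members the highest r was that of Stat4 and Stat6 (0.877), the lowest that of Stat4 and Stat5b (-0.736), and that of the neighbours Stat5a and Stat5b was 0.07.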

How the data were processed

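RNA was sequenced from 24 libraries of 12 populations, 2 replicates each, with 24746109 to 37056508 reads on genes. Per the labels and the study's methods, reads from stranded, ribosomal RNA-depleted libraries were aligned with STAR to mm10 with strain differences masked and were counted with HTSeq 0.6.1, tools that the submitters' processing notes also name. The authors deposited a signal per gene, the read count divided by a DESeq2 size factor. All values (100% in every library, tolerance 0.01 reads) corresponded to whole reads, so whole reads were recovered for count tests. The file of allelic proportions on the X chromosome was not used here.

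Groups follow the labels. limma 3.58.1 (R 4.3.3, trended variance) was fitted per comparison to log2(normalized count + 1), for genes with a mean above 10, with Benjamini-Hochberg adjustment over all tested genes, a threshold of 0.1 and two-sided tests. In total 5 IFNγ comparisons, 8 stage comparisons and 3 interactions were planned, and 3 interactions were added after the data had been seen. Alternatives were a pseudocount of 0.1, no filter, rescaling to the same total, 1 fit of all libraries, a replicate block, edgeR 4.0.16, DESeq2 1.42.0 and leaving out each library. The fit was tested on simulated data.

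The members and gene lists were chosen with earlier results of these data known. From the pathway list, the text names, for each IFNγ comparison, the 2 called genes that rose most and the 2 that fell most, provided that a group averaged 100 or more and libraries did not overlap, and always Irf9, Jak2, Socs1, Socs3, Cish and Il4ra. For each STAT gene it names the 3 genes with the highest correlation of population means. Gene positions and lengths come from GENCODE vM21, and promoter windows from RefSeq. Of the gene identifiers, 95.0% matched GENCODE. 1 member of the family is not reported here.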

Additional observations from a re-analysis of the deposited data

Results flagged for a closer look

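The difference of IFNγ effects between days or gates was tested for the 6 STAT genes in 3 planned and 3 added interactions. Of these tests 16 were called (limma interaction terms, 8 libraries each, two-sided, adjusted over all genes, threshold 0.1). None was called between day 5 and day 2, where 0.676% of all tested genes were. Each value is the difference of log2 fold changes.

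Between the gates of day 7, the Stat5a effect was more negative in X-GFP–medium than in X-GFP–negative cells (-0.73, adjusted p 0.0370), and so was the Stat5b effect (-0.36, adjusted p 0.0917). From X-GFP–medium to X-GFP–high cells, the effects on Stat2 and Stat3 were smaller (-0.46 and -0.28, adjusted p 0.0771 and 0.0705), and that on Stat5a was less negative (0.70, adjusted p 0.0750). Of all tested genes, 7.31% were called higher and 8.36% lower in the first comparison of gates, and 4.71% and 8.06% in the second. Both comparisons share the X-GFP–medium libraries. The call of each of these 5 values was lost without at least 2 of the single libraries. That of Stat5b was lost without any 1 of the 8 libraries other than X-GFP–negative control replicate 1. No filter, the fit of all libraries and DESeq2 lost it too. Those of Stat2 and Stat3 were lost without any 1 of the 8 other than X-GFP–medium IFNγ replicate 2 and X-GFP–high IFNγ replicate 1.

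Against day 2, in tests added after the data had been seen, the effects in X-GFP–negative cells were lower for Stat2 (-1.34), Stat3 (-0.50) and Stat5b (-0.60) and higher for Stat4 (0.80, adjusted p 0.0954). The Stat4 call was lost with a pseudocount of 0.1 (adjusted p 0.101), with no filter (0.151), with DESeq2 (0.254) and without any 1 of the 8 libraries other than day 2 IFNγ replicate 2. In X-GFP–medium cells they were lower for Stat2 (-1.17), Stat3 (-0.37), Stat5a (-1.05) and Stat5b (-0.96). In X-GFP–high cells they were lower for Stat2 (-1.64), Stat3 (-0.65) and Stat5b (-0.78). Of all tested genes, 23.1%, 23.8% and 14.8% were called lower in the 3 gates, and 19.8%, 19.6% and 8.76% higher. The Stat5b effect itself was 0.44 at day 2 and -0.15, -0.51 and -0.33 at day 7, the first of these 3 not passing the threshold. The day 2 libraries are shared by these tests, day 2 cells were sorted by another marker than day 7 cells, and day and sort cannot be told apart. No gap in a group of 4 or more libraries could be assessed, since every population had 2.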

How the results depend on the processing

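Over 114 log2 fold changes of STAT genes, the direction and side of the threshold were kept in 113 with a pseudocount of 0.1, 112 with edgeR, 107 with values rescaled to the same total, 104 with no filter and 103 each with DESeq2 and with all libraries in 1 fit. Replicates of only 2 per group limit the precision. Stat4 in NPCs and day 2 cells and both Stat5a and Stat6 in NPCs were under 40 reads. The causes of the changes below were not tested.

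The replicate numbers are not stated to mark a shared culture. Replicate differences of IFNγ-treated and control cells correlated by 0.454 at day 2, 0.412 at day 5 and, at day 7, by 0.271 in the negative, 0.153 in the medium and 0.0760 in the high gate (12021 genes), but each comparison has only 2 pairs. With the replicate block 105 of the 114 values kept their call. With IFNγ it gave 1 STAT gene lower at day 2 (Stat5a, adjusted p 0.0993), 3 higher at day 5 (Stat2, Stat3 at 0.00395 and Stat6 at 0.0174) and 2 lower in X-GFP–negative cells (Stat5a and Stat5b at 0.0926), where Stat3 was also called (0.0219). It gave 1 higher from day 5 to X-GFP–negative cells with IFNγ (Stat3 being lost at 0.123) and 1 higher in the X-GFP–medium against negative difference (Stat6 at 0.0635). Without IFNγ it called Stat5a from day 2 to day 5 (0.0842) and from the negative to the medium gate (0.0155). Il4ra was called at day 2 (0.24, adjusted p 0.0311) and Socs3 in X-GFP–negative cells (adjusted p 0.0608). In the pathway list it called 31 genes higher and 11 lower at day 2, and 27 higher and 8 lower at day 5.

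With no filter, the pathway list had 11 genes higher at day 2 and 6 at day 5, and STAT genes were 0 lower in X-GFP–high cells with IFNγ, 0 lower from day 5 to X-GFP–negative control cells, 1 higher from negative to medium control cells and 1 higher from day 5 to X-GFP–negative cells with IFNγ. With all libraries in 1 fit the pathway list had 11 higher and 3 lower at day 2 and 21 higher and 5 lower at day 5, with 2 STAT genes higher at day 5 and 1 higher from negative to medium control cells. DESeq2 gave 2 STAT genes higher and 2 pathway genes lower at day 5, 1 STAT gene higher in X-GFP–negative cells with IFNγ, 0 lower from day 5 to negative control cells, and 1 higher both from negative to medium control cells and from day 5 to X-GFP–negative cells with IFNγ. Of the differences of effects, day 5 against day 2 had 1 lower with all libraries and with DESeq2. Medium against negative had 1 lower with no filter, all libraries or DESeq2. High against medium had 0 higher with no filter or all libraries, and 0 lower with no filter, all libraries or DESeq2 and 1 with edgeR. Negative against day 2 had 0 higher (Stat4 being lost) with a pseudocount of 0.1, no filter or DESeq2.

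Signs turned with rescaling for Stat5b (0.0036), Stat6 (0.15) and Il4ra (0.11) in X-GFP–negative cells with IFNγ, where that scaling shifted the median of all genes by 0.16, for Stat5b from negative to medium control cells (0.011) and for the Stat3 medium against negative difference (-0.0405). The Irf9 value in X-GFP–medium cells turned to -0.0244 with DESeq2 and -0.0139 with edgeR.

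Leaving out 1 library gave these ranges for STAT genes: 1 to 3 higher (with IFNγ at day 5), 1 to 2 higher (with IFNγ at day 7 X-GFP–negative), 0 to 1 higher (with IFNγ at day 7 X-GFP–high), 0 to 2 lower (with IFNγ at day 7 X-GFP–high), 0 to 1 lower (day 2 control against NPC), 0 to 1 lower (day 7 X-GFP–negative control against day 5 control), 1 to 2 higher (day 7 X-GFP–medium control against negative control), 1 to 2 lower (day 7 X-GFP–high control against ESC), 1 to 2 higher (day 7 X-GFP–negative IFNγ against day 5 IFNγ), 1 to 2 lower (day 7 X-GFP–negative IFNγ against day 5 IFNγ), 0 to 1 lower (day 5 against day 2 effects), 0 to 1 higher (X-GFP–medium against negative effects), 0 to 2 lower (X-GFP–medium against negative effects), 0 to 1 higher (X-GFP–high against medium effects), 0 to 2 lower (X-GFP–high against medium effects), 0 to 1 higher (day 7 X-GFP–negative against day 2 effects), 0 to 1 higher (day 7 X-GFP–medium against day 2 effects), 0 to 1 higher (day 7 X-GFP–high against day 2 effects). Leaving out 1 library gave these ranges for pathway genes: 10 to 12 higher (with IFNγ at day 2), 3 to 18 higher (with IFNγ at day 5), 0 to 4 lower (with IFNγ at day 5), 5 to 11 higher (with IFNγ at day 7 X-GFP–high), 9 to 21 lower (with IFNγ at day 7 X-GFP–high). Log2 values that turned sign spanned Stat6 -0.311 to 0.278 (with IFNγ at day 2), Stat5a -0.226 to 0.326 (with IFNγ at day 5), Stat5b -0.151 to 0.30 (with IFNγ at day 5), Cish -0.254 to 0.41 (with IFNγ at day 5), Il4ra -0.595 to 0.0668 (with IFNγ at day 5), Jak2 -0.026 to 0.259 (with IFNγ at day 5), Stat6 -0.101 to 0.0861 (with IFNγ at day 7 X-GFP–negative), Il4ra -0.148 to 0.0496 (with IFNγ at day 7 X-GFP–negative), Il4ra -0.151 to 0.232 (with IFNγ at day 7 X-GFP–medium), Irf9 -0.000945 to 0.0267 (with IFNγ at day 7 X-GFP–medium), Stat3 -0.0797 to 0.0287 (with IFNγ at day 7 X-GFP–high), Stat6 -0.0132 to 0.096 (with IFNγ at day 7 X-GFP–high), Il4ra -0.28 to 0.121 (with IFNγ at day 7 X-GFP–high), Socs1 -0.175 to 0.562 (with IFNγ at day 7 X-GFP–high), Socs3 -0.112 to 0.0459 (with IFNγ at day 7 X-GFP–high), Stat4 -0.13 to 0.438 (day 2 control against NPC), Stat2 -0.00888 to 0.357 (day 7 X-GFP–negative control against day 5 control), Stat5b -0.141 to 0.0165 (day 7 X-GFP–medium control against negative control), Stat6 -0.00102 to 0.129 (day 7 X-GFP–medium control against negative control), Stat4 -0.0845 to 0.171 (X-GFP–high against medium effects), Stat6 -0.286 to 0.304 (day 7 X-GFP–negative against day 2 effects), Stat6 -0.237 to 0.353 (day 7 X-GFP–high against day 2 effects).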
